A study of Saccharomyces cerevisiae with 14 samples.

Results

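The genes described here encode the yeast's main enzymes against superoxide and peroxide, together with a thioredoxin and the transcription factor that controls many of them. They are CTT1, SOD1, SOD2, TSA1, TSA2, AHP1, PRX1, DOT5, TRX2 and YAP1, chosen by name in the array annotation, with 1 probe set each. They make up 10 of the 5449 Saccharomyces cerevisiae genes measured. The probe sets are those annotated to YGR088W (CTT1), YJR104C (SOD1), YHR008C (SOD2), YML028W (TSA1), YDR453C (TSA2), YLR109W (AHP1), YBL064C (PRX1), YIL010W (DOT5), YGR209C (TRX2) and YML007W (YAP1).

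RNA was taken from M2 nsf1∆ and from its parent M2, an industrial wine yeast that is a MATa/α diploid, while they fermented Riesling grape must without shaking. In M2 nsf1∆ both copies of NSF1, which codes for a zinc finger transcription factor, are replaced by KanMX, and the annotation lists NSF1 as USV1. Each strain was sampled at 24 h after inoculation (2 arrays), at 20% of the sugar fermented (2 arrays) and at 85% (3 arrays), giving 14 Affymetrix Yeast Genome 2.0 arrays. The labels call the arrays of a group biological replicates, and the p-values measure the spread between them. Which flask each array came from is not given, so arrays with 1 replicate number at different stages may share a flask. The main tests took all 14 arrays as independent. All values are log2 intensities, in which a step of 1 is a 2-fold change, and the level of one gene cannot be set against that of another because their probes differ.

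Superoxide dismutases turn superoxide into hydrogen peroxide, which catalases and peroxiredoxins then break down. Peroxiredoxins pass the oxidation on to thioredoxins, which are reduced again by thioredoxin reductase. Yap1p is kept mostly in the cytosol until peroxide oxidizes it, so its activity depends on more than its transcript level.

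As a check of the labels, NSF1 read between 2.95 and 5.90 on the 7 M2 nsf1∆ arrays and between 8.92 and 13.19 on the 7 M2 arrays. The highest mutant value, 5.90, belonged to replicate 3 at 85%, and the others of that strain were at most 4.28. Probe sets annotated to a gene outside the S. cerevisiae list, taken as Schizosaccharomyces pombe genes without a target in this yeast, had a median of 3.06. Haploid-specific genes, which an a/α diploid keeps off, averaged 5.37 to 5.53 at 24 h and 7.37 to 7.79 at 85% in M2 nsf1∆, and 5.27 to 5.34 and 7.70 to 7.81 in M2. All 10 of them passed as higher at 85% than at 24 h in both strains, where 37.0% of all probe sets tested did in M2 nsf1∆ and 38.0% in M2. Of 10 sporulation genes, 8 passed as higher in each strain, while SPR3 and HOP1 passed as lower in M2 nsf1∆ and HOP1 in M2. The part of such cells in the results below was not tested. In RNA from whole cultures a change in the RNA per cell and a change in the make-up of the culture cannot be told apart.

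The genes followed a few courses over the fermentation, and group means took the same order in both strains for most of them. CTT1 and SOD1 had their lowest group means at 24 h. SOD2 and PRX1 peaked at 20%. TSA1, TSA2 and AHP1 were lowest at 85%, YAP1 was highest there, DOT5 was highest at 24 h and TRX2 moved least. Stage accounted for 74.0% (TRX2) to 97.3% (TSA2) of the sum of squares of each gene, while strain accounted for 0.0111% (SOD1) to 12.1% (DOT5). The strain share holds only the mean difference over all stages, so differences of opposite sign cancel in it. M2 nsf1∆ minus M2 was 0.19 at 24 h and -0.08 at 85% for SOD1, and 0.33 and -0.17 for CTT1.

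**Figure D1:**
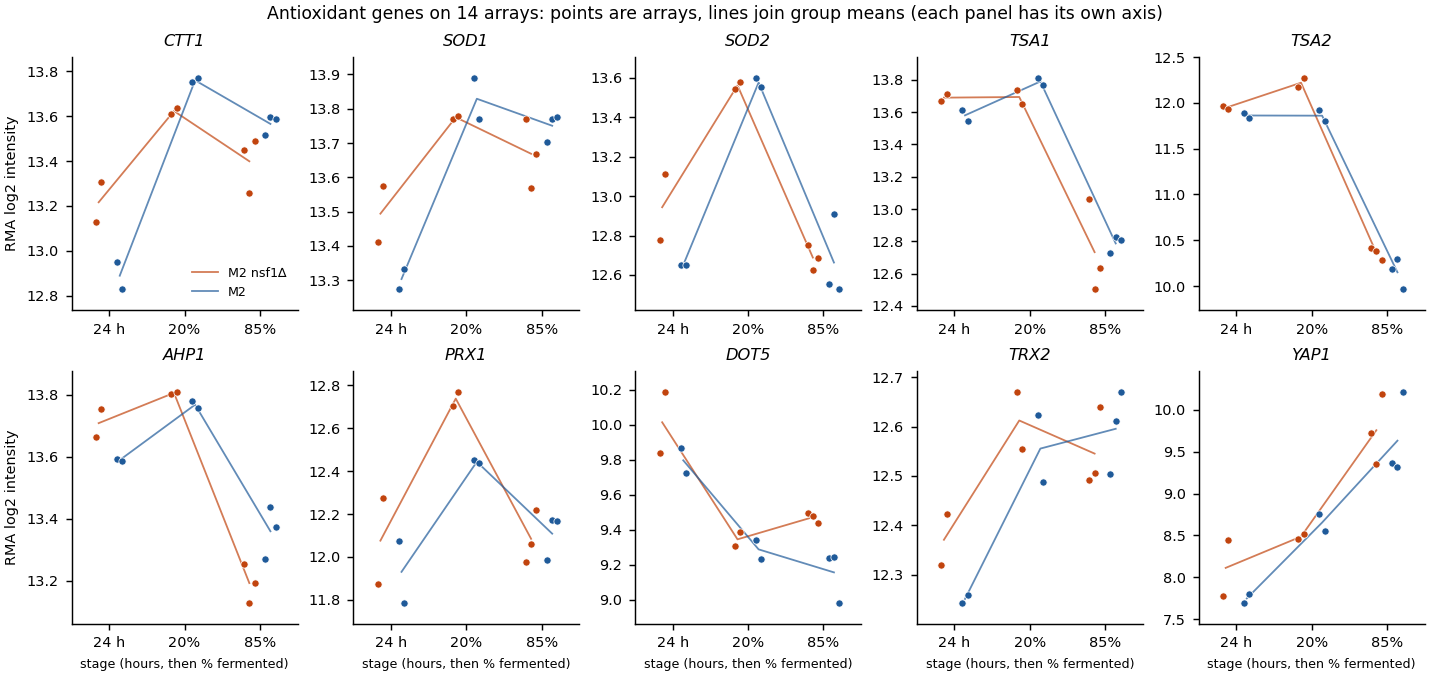
RMA log2 intensity of the 10 genes (vertical axis, 1 scale per panel) by stage of fermentation, with M2 nsf1∆ left of M2 at each stage. Each point is an array and lines join group means, and a reader should see TSA2 near 12 at the first 2 stages and near 10 at 85% in both strains.

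CTT1, the cytosolic catalase, read 13.13 and 13.31 at 24 h, 13.61 and 13.64 at 20%, then 13.45, 13.26 and 13.49 at 85% in M2 nsf1∆. In M2 it read 12.95 and 12.83 at 24 h, 13.75 and 13.77 at 20%, then 13.52, 13.60 and 13.59 at 85%. In M2 every later array lay above both 24 h arrays, and in M2 nsf1∆ the 24 h and 85% arrays overlapped. Between 24 h and 20% CTT1 rose by 0.41 ± 0.12 (SE) in M2 nsf1∆ (limma, adjusted p = 0.0187) and by 0.87 ± 0.12 in M2 (limma, adjusted p = 8.09e-05). The mutant's rise was lost without replicate 1 at 24 h (adjusted p = 0.131), and without replicate 1 (0.0737) or replicate 2 (0.0932) at 20%. From 24 h to 85% the change was 0.18 ± 0.11 in M2 nsf1∆, which did not pass (adjusted p = 0.156), and 0.68 ± 0.11 in M2 (adjusted p = 9.32e-05). With quantile normalization over the S. cerevisiae probe sets alone the mutant's change was 0.29 and passed (adjusted p = 0.0278). From 20% to 85% CTT1 changed by -0.22 in M2 nsf1∆ (adjusted p = 0.0924), which passed with an intensity trend (adjusted p = 0.0385) and with array weights (-0.27, adjusted p = 0.0197), and by -0.19 in M2 (adjusted p = 0.141).

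The difference between these changes was tested directly. For 85% against 24 h it was -0.49 (95% interval -0.83 to -0.15) and for 20% against 24 h -0.46 (-0.84 to -0.09), and neither passed over all 5498 probe sets (limma, adjusted p = 0.128 and 0.217). CTT1 is among the brightest genes on these arrays: it was 1 of 4 of the 10 genes with a mean over 13, with SOD1, TSA1 and AHP1, a level reached by 1.38% of the probe sets tested. Whether changes at that level are compressed was not tested.

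CTA1, the peroxisomal and mitochondrial catalase, had the larger change. It read 9.15 and 10.44 at 24 h, 10.85 and 10.83 at 20%, then 11.79, 12.02 and 12.23 at 85% in M2 nsf1∆. The M2 arrays gave 8.75 and 8.69 at 24 h, 11.45 and 11.35 at 20%, then 11.80, 11.89 and 11.91 at 85%. The rise from 24 h to 85% was 2.22 in M2 nsf1∆ (a 4.64-fold change, adjusted p = 4.62e-06) and 3.15 in M2 (8.85-fold, adjusted p = 1.52e-07), and the difference between the strains, -0.93, did not pass (adjusted p = 0.214).

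SOD1, the cytosolic copper and zinc superoxide dismutase, read 13.41 and 13.58 at 24 h, 13.77 and 13.78 at 20%, then 13.77, 13.57 and 13.67 at 85% in M2 nsf1∆. The M2 arrays gave 13.27 and 13.33 at 24 h, 13.89 and 13.77 at 20%, then 13.70, 13.77 and 13.78 at 85%. It rose with CTT1 in M2, by 0.53 ± 0.12 from 24 h to 20% (limma, adjusted p = 0.00243), with no later fall that passed. In M2 nsf1∆ the same change was 0.28 ± 0.12 and did not pass (adjusted p = 0.0765, or 0.0255 with an intensity trend in limma), and the difference between the strains was -0.24 (95% interval -0.61 to 0.12). CCS1, the copper chaperone that loads Sod1p, did not pass in M2 for 85% against 24 h (a change of 0.08, adjusted p = 0.55) and fell by 0.32 in M2 nsf1∆ (adjusted p = 0.0238). The difference between these changes of CCS1 did not pass.

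SOD2, the manganese superoxide dismutase of the mitochondrial matrix, read 12.78 and 13.11 at 24 h, 13.54 and 13.58 at 20%, then 12.75, 12.62 and 12.69 at 85% in M2 nsf1∆. In M2 it read 12.65 and 12.65 at 24 h, 13.60 and 13.55 at 20%, then 12.55, 12.91 and 12.53 at 85%. The 20% arrays stood above all others in both strains. SOD2 rose into that stage by 0.62 ± 0.15 in M2 nsf1∆ (limma, adjusted p = 0.0059) and by 0.93 ± 0.15 in M2 (adjusted p = 2.41e-04). It fell after it by 0.87 ± 0.14 in M2 nsf1∆ (adjusted p = 8.58e-05) and by 0.91 ± 0.14 in M2 (adjusted p = 6.14e-05). Without replicate 1 at 24 h the mutant's rise was 0.45 and did not pass (adjusted p = 0.0688), and SOD2 then passed as lower at 85% than at 24 h (-0.42, adjusted p = 0.0339).

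PRX1, the mitochondrial peroxiredoxin, peaked at the same stage. It read 11.88 and 12.28 at 24 h, 12.71 and 12.77 at 20%, then 11.98, 12.06 and 12.22 at 85% in M2 nsf1∆. The M2 values were 12.07 and 11.79 at 24 h, 12.45 and 12.44 at 20%, then 11.99, 12.17 and 12.17 at 85%. As for SOD2, every 20% array lay above the arrays of the other stages in its strain. The rise to 20% was 0.66 ± 0.15 in M2 nsf1∆ (limma, adjusted p = 0.0048) and 0.51 ± 0.15 in M2 (adjusted p = 0.0131). The fall after it was 0.65 ± 0.14 in M2 nsf1∆ (adjusted p = 0.00113), while the change of -0.34 ± 0.14 in M2 missed the threshold (adjusted p = 0.051) and passed under 5 of the other settings. The rise did not pass without replicate 1 at 24 h in M2 nsf1∆ (adjusted p = 0.0608), and without replicate 2 at 24 h (0.37, adjusted p = 0.128) or replicate 1 at 20% (adjusted p = 0.0564) in M2.

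Among partner genes in the same organelle, TRR2, the mitochondrial thioredoxin reductase, also peaked at 20%. It rose by 1.39 in M2 nsf1∆ and by 1.61 in M2, and by 85% it fell by 0.72 in M2 nsf1∆ and by 0.87 in M2, all with limma at adjusted p of 8.92e-05 or less. TRX3, the mitochondrial thioredoxin, rose at both steps in both strains and ended 2.83-fold higher in M2 nsf1∆ and 3.25-fold higher in M2 than at 24 h.

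TSA1, the major cytosolic peroxiredoxin, read 13.67 and 13.71 at 24 h, 13.74 and 13.65 at 20%, then 13.06, 12.50 and 12.64 at 85% in M2 nsf1∆. In M2 it read 13.62 and 13.54 at 24 h, 13.81 and 13.77 at 20%, then 12.73, 12.83 and 12.81 at 85%. The 85% arrays were the lowest in each strain without overlap, and the change between the 2 earlier stages, 0.00 in M2 nsf1∆ and 0.21 in M2, did not pass (adjusted p = 0.988 and 0.279). From 20% to 85% TSA1 fell by 0.96 ± 0.14 in M2 nsf1∆ (limma, adjusted p = 5.49e-05) and by 1.00 ± 0.14 in M2 (adjusted p = 3.95e-05).

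TSA2, its stress-inducible close copy, had the deepest fall of the 10 genes. It read 11.96 and 11.93 at 24 h, 12.17 and 12.27 at 20%, then 10.41, 10.38 and 10.29 at 85% in M2 nsf1∆. The M2 values were 11.89 and 11.84 at 24 h, 11.92 and 11.80 at 20%, then 10.19, 10.29 and 9.97 at 85%. The fall from 20% to 85% was 3.63-fold in M2 nsf1∆ (log2 change -1.86 ± 0.12, limma, adjusted p = 3.32e-08) and 3.27-fold in M2 (-1.71 ± 0.12, adjusted p = 7.59e-08). How far the TSA1 and TSA2 probes read each other's transcript was not tested.

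AHP1, a thiol-specific peroxiredoxin of the cytosol, fell late as well. It read 13.66 and 13.75 at 24 h, 13.80 and 13.81 at 20%, then 13.25, 13.13 and 13.19 at 85% in M2 nsf1∆, against 13.59 and 13.59, then 13.78 and 13.76, then 13.27, 13.44 and 13.37 in M2. All 85% arrays lay below all earlier arrays of their strain. The fall from 20% to 85% was 0.61 ± 0.10 in M2 nsf1∆ (limma, adjusted p = 1.47e-04) and 0.41 ± 0.10 in M2 (adjusted p = 0.00322). Against 24 h, the 85% level was lower by 0.52 in M2 nsf1∆ (adjusted p = 4.70e-04), while the change of -0.23 in M2 was near the threshold (adjusted p = 0.0573) and passed under 5 of the other settings and without replicate 2 at 85% (adjusted p = 0.048).

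DOT5, the nuclear peroxiredoxin, fell at the step at which PRX1 rose. It read 9.84 and 10.19 at 24 h, 9.30 and 9.38 at 20%, then 9.49, 9.48 and 9.44 at 85% in M2 nsf1∆, against 9.87 and 9.72, then 9.34 and 9.23, then 9.24, 9.24 and 8.98 in M2. It was highest at 24 h in both strains, without overlap with either later stage. From 24 h to 20% it fell by 0.67 ± 0.14 in M2 nsf1∆ (limma, adjusted p = 0.00276) and by 0.51 ± 0.14 in M2 (adjusted p = 0.00885). The fall in M2 did not pass without replicate 1 at 24 h (-0.44, adjusted p = 0.0679) or replicate 2 at 20% (-0.45, adjusted p = 0.0525). SRX1, sulfiredoxin, which repairs overoxidized peroxiredoxins, moved the other way from TSA1 and TSA2: from 20% to 85% it rose by 1.49 in M2 nsf1∆ (adjusted p = 8.07e-06) and by 1.22 in M2 (adjusted p = 4.97e-05).

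TRX2, a cytosolic thioredoxin and a known target of Yap1p, moved least, within a range of 0.43 over the 14 arrays. It read 12.32 and 12.42 at 24 h, 12.67 and 12.55 at 20%, then 12.49, 12.51 and 12.64 at 85% in M2 nsf1∆, and 12.24 and 12.26, then 12.62 and 12.49, then 12.50, 12.61 and 12.67 in M2. The 24 h arrays were the lowest in each strain. The change from 24 h to 85% was 0.18 ± 0.11 in M2 nsf1∆ (limma, adjusted p = 0.164) and 0.35 ± 0.11 in M2 (adjusted p = 0.0112). The call in M2 was lost without replicate 1 at 24 h (adjusted p = 0.056), and that for 20% against 24 h (0.31, adjusted p = 0.0459) without any 1 of its 4 arrays (adjusted p of 0.0521 to 0.211), with all probe sets (0.083), with array weights (0.0555) and with the compared arrays alone (0.102). The same further quantile normalization raised the mutant's change to 0.37 (adjusted p = 0.00455).

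TRX1, the other cytosolic thioredoxin, fell at the same time. It read 12.92 and 12.79 at 24 h, 12.49 and 12.50 at 20%, then 10.99, 10.84 and 11.19 at 85% in M2 nsf1∆, against 12.85 and 12.96, then 12.00 and 12.05, then 10.47, 10.78 and 10.76 in M2. The stages did not overlap in either strain. From 24 h to 85% TRX1 fell by 1.85 in M2 nsf1∆ (limma, adjusted p = 3.96e-08) and by 2.23 in M2 (adjusted p = 8.10e-09), in M2 a 4.70-fold fall beside the 1.27-fold rise of TRX2. TRR1, the cytosolic thioredoxin reductase, fell with TRX1, by 0.88 in M2 nsf1∆ and by 0.81 in M2.

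**Figure D2:**
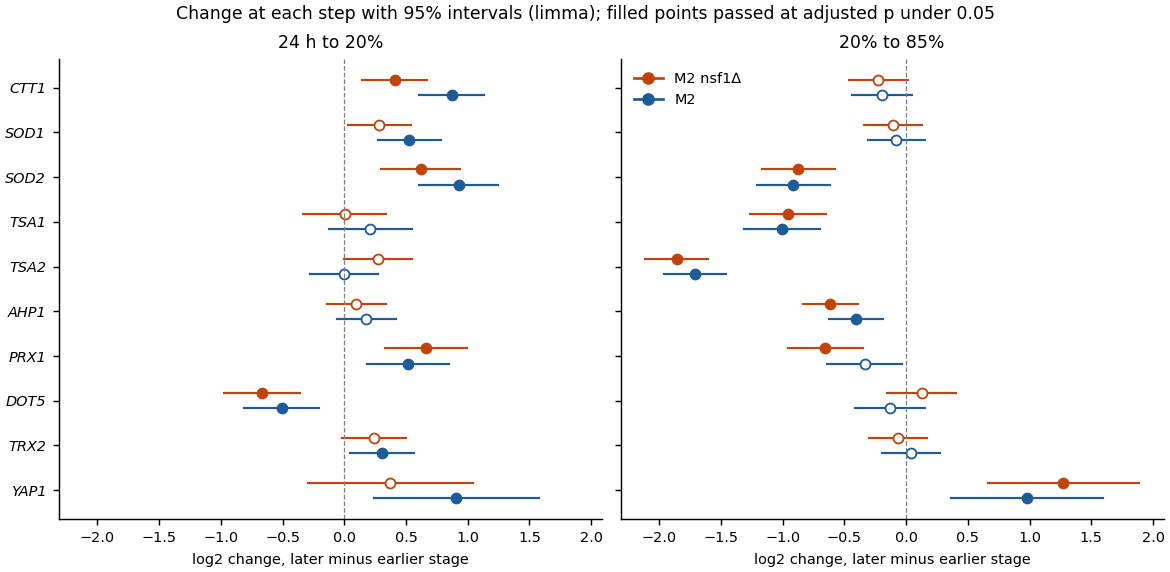
Log2 change of the 10 genes (horizontal axis) from 24 h to 20% and from 20% to 85%, with M2 nsf1∆ above M2 in each row, as the limma estimate with its 95% interval. Filled points passed at adjusted p under 0.05, and a reader should see SOD2 and PRX1 right of 0 in the first panel and left of it in the second, and TSA2 at -1.86 and -1.71 in the second.

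YAP1, the gene of the peroxide-sensing activator, rose while TSA1 and TSA2 fell. It read 7.77 and 8.45 at 24 h, 8.45 and 8.52 at 20%, then 9.73, 9.35 and 10.20 at 85% in M2 nsf1∆. In M2 it read 7.70 and 7.80 at 24 h, 8.76 and 8.55 at 20%, then 9.36, 9.32 and 10.22 at 85%. In both strains all 85% arrays were above all earlier ones, and replicate 3 was the highest. From 24 h to 85% the rise was 1.65 ± 0.28 in M2 nsf1∆ (3.13-fold, limma, adjusted p = 1.45e-04) and 1.89 ± 0.28 in M2 (3.70-fold, adjusted p = 4.12e-05). Without replicate 3 at 85% it was 1.43 in M2 nsf1∆ (adjusted p = 6.03e-04) and, without that of M2, 1.59 in M2 (adjusted p = 7.62e-05). By step, M2 nsf1∆ changed by 0.37 ± 0.31 from 24 h to 20%, which did not pass (limma, adjusted p = 0.365). From 20% to 85% it rose by 1.27 ± 0.28 (adjusted p = 0.00145). The first step, 0.91 ± 0.31 in M2 (adjusted p = 0.0256), did not pass without any 1 of its 4 arrays (adjusted p of 0.0523 to 0.122), and the second, 0.98 in M2, was 0.88 without replicate 2 at 20% (adjusted p = 0.0607).

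Some other regulators of these genes shared part of that course. SKN7, a response regulator that acts with Yap1p on peroxide genes, rose from 24 h to 85% by 1.63 in M2 nsf1∆ and by 1.96 in M2 (limma, adjusted p = 5.68e-05 and 9.76e-06). MSN4, a general stress activator, rose by 1.97 in M2 nsf1∆ and by 1.63 in M2 (adjusted p = 7.18e-06 and 4.11e-05). Its relative MSN2 changed by -0.27 in M2 nsf1∆ (adjusted p = 0.39) and rose by 0.77 in M2 (adjusted p = 0.0225), and the difference of -1.04 between these changes did not pass (adjusted p = 0.182). YBP1, whose product helps to oxidize Yap1p, fell by 1.29 in M2 nsf1∆ and by 1.13 in M2 (adjusted p = 1.11e-04 and 3.09e-04). Replicate 3 was the highest 85% array in both strains for all 4 of these regulators too, including MSN2 (8.73 in M2 nsf1∆ and 9.36 in M2) and YBP1 (6.61 and 6.48), whose course was the opposite. CAD1, a close relative of YAP1, went the other way, with changes from 24 h to 85% of -1.06 in M2 nsf1∆ and -0.38 in M2. For CAD1 replicate 3 was the lowest 85% array in both strains, at 7.47 in M2 nsf1∆ and 8.26 in M2.

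**Figure D3:**
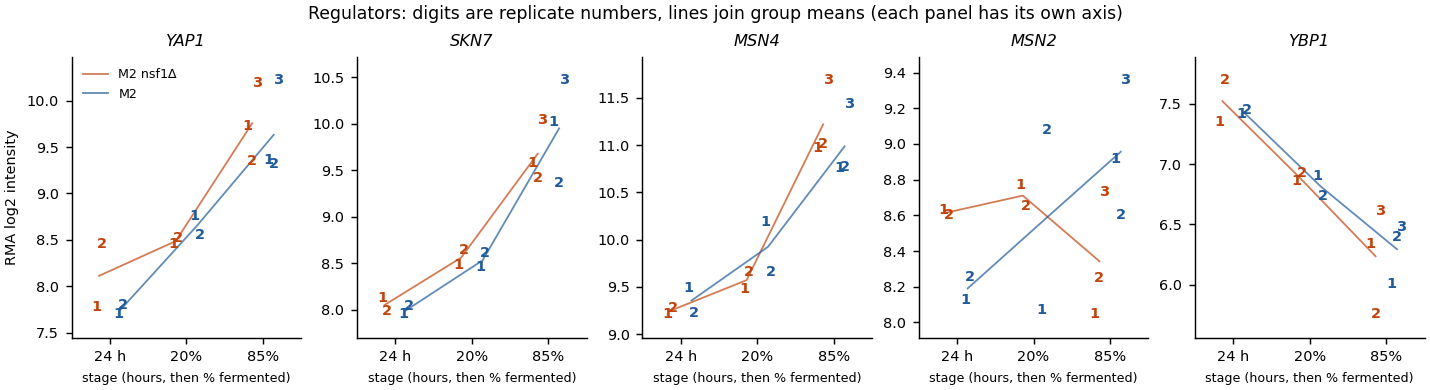
RMA log2 intensity of YAP1, SKN7, MSN4, MSN2 and YBP1 (vertical axis, 1 scale per panel) at 24 h, 20% and 85% fermented, with M2 nsf1∆ left of M2. Digits are replicate numbers placed at each array's value and lines join group means, and replicate 3 at 85% lies highest for YAP1 in both strains, at 10.20 in M2 nsf1∆ and 10.22 in M2.

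Counted over the 10 genes, from 24 h to 20% 3 rose and 1 fell in M2 nsf1∆, where 38.2% of all probe sets tested passed (19.9% higher, 18.3% lower). In M2 6 rose and 1 fell at that step, where 52.9% passed (26.5% higher, 26.4% lower). The count of 4 in M2 nsf1∆ was 1 without replicate 1 at 24 h (26.0% of all probe sets passed), and the count of 7 in M2 was 4 without any 1 of its arrays (40.0% to 46.5%). From 20% to 85%, 1 rose and 5 fell in M2 nsf1∆ (65.5% of all passed, 31.6% higher and 33.9% lower), and 1 rose and 4 fell in M2 (65.0%, 33.1% and 31.9%). From 24 h to 85%, 1 rose and 4 fell in M2 nsf1∆ (73.0%, 37.0% and 36.0%), and 4 rose and 3 fell in M2 (73.2%, 38.0% and 35.2%). A call between stages was common among all genes, so these counts alone do not set the antioxidant genes apart. Their median change from 24 h to 20% was 0.28 in M2 nsf1∆ and 0.41 in M2, where the medians of all probe sets were 0.02 and 0.02. From 20% to 85% it was -0.42 in M2 nsf1∆ and -0.26 in M2, beside -0.03 and 0.01. Over the whole span, 24 h to 85%, it was -0.12 in M2 nsf1∆ and 0.10 in M2, beside 0.02 and 0.05. Whether these medians lie outside those of other sets of 10 genes was not tested.

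Of 23 partner genes of the redox system, 9 were higher and 10 lower at 85% than at 24 h in M2 nsf1∆, and 10 were higher and 8 lower in M2, where 73.0% of all probe sets passed in M2 nsf1∆ and 73.2% in M2. From 24 h to 20%, 6 rose and 3 fell in M2 nsf1∆ (38.2% of all passed) and 8 rose and 3 fell in M2 (52.9%). TRX1 had the deepest fall of the list in M2 at that step (-0.88), and GPX2, a glutathione peroxidase, in M2 nsf1∆ (-0.79, limma, adjusted p = 0.00379). From 20% to 85%, 7 rose and 11 fell in M2 nsf1∆ (65.5% of all passed) and 6 rose and 10 fell in M2 (65.0%), with MXR1, a methionine sulfoxide reductase, falling most in M2 (-1.68, adjusted p = 1.23e-05). GPX2 ended 1.87 lower at 85% than at 24 h in M2 nsf1∆ and 1.67 lower in M2, while CTA1 had the largest rise of the list in both strains.

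**Figure D4:**
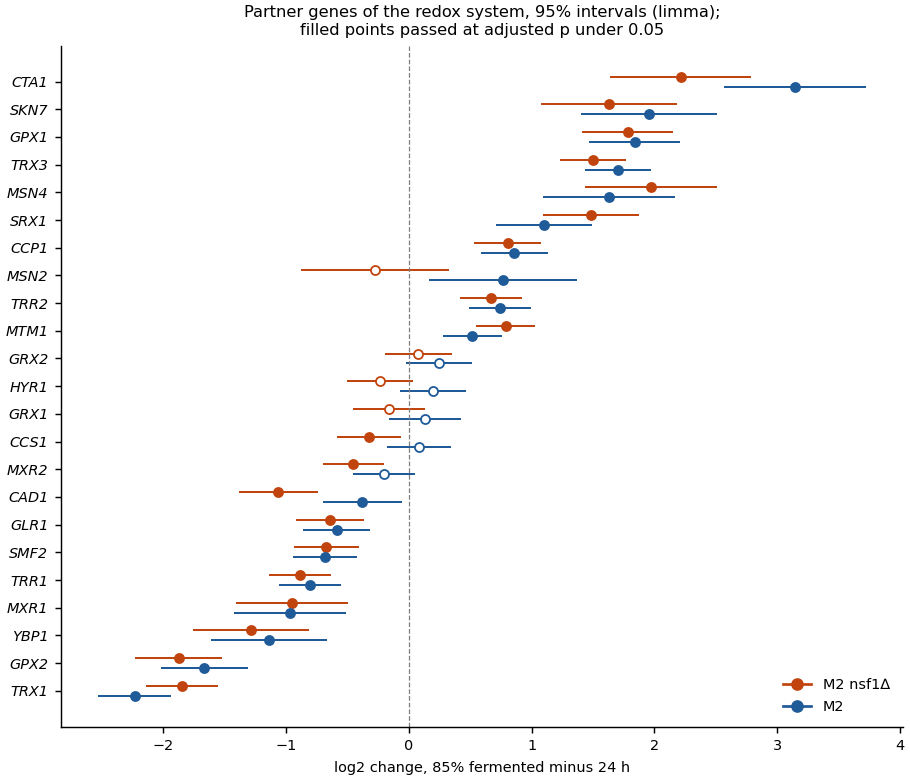
Log2 change from 24 h to 85% (horizontal axis) of 23 partner genes, with M2 nsf1∆ above M2 in each row, as the limma estimate with its 95% interval and filled where adjusted p was under 0.05. CTA1 is at the top, at 2.22 in M2 nsf1∆ and 3.15 in M2, and TRX1 at the bottom, at -1.85 and -2.23.

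None of the 10 genes passed between M2 nsf1∆ and M2 at any stage. At 24 h 0 of 10 passed with limma (0.127% of all probe sets did), and 1, CTT1, had an unadjusted p under 0.05. At 20% 0 passed (0.346% of all) and TSA2 alone had an unadjusted p under 0.05, and at 85% 0 passed (8.84% of all) and DOT5 alone did. The methods' t-test with unequal variances, run at 85%, passed 0 of 10 at an unadjusted 0.05, where 849 of all 5498 probe sets passed. After Benjamini-Hochberg adjustment it passed 0 of 10 and 0 of all probe sets. How many of all probe sets had an unadjusted p under 0.05 with limma was not counted.

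The intervals say how large a difference the data leave room for. At 85% the 95% intervals of the 10 differences lay between -0.42 and 0.67, both bounds being those of YAP1. With 2 arrays per group they reached further, from -0.31 to 1.04 at 24 h and from -0.84 to 0.64 at 20%. DOT5 came nearest to the threshold: its 3 M2 nsf1∆ arrays at 85% (9.49, 9.48 and 9.44) lay above its 3 M2 arrays (9.24, 9.24 and 8.98), a difference of 0.32 (95% interval 0.07 to 0.57, limma, adjusted p = 0.108). TSA2 at 20% read 12.17 and 12.27 in M2 nsf1∆, against 11.92 and 11.80 in M2, a difference of 0.36 (0.08 to 0.64, adjusted p = 0.206). The groups did not overlap for 3 of the 10 genes at 85%, CTT1, AHP1 and DOT5, where 29.8% of all probe sets did not overlap.

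At 24 h all 10 differences were positive, from 0.08 for TSA2 to 0.37 for YAP1, with a median of 0.17 beside 0.02 for all probe sets. They come from the same arrays, so their shared sign is not 10 separate results. The arrays of 7 of the 10 did not overlap between strains, where 41.6% of all probe sets did not. At that stage the mutant's arrays also lay further along the M2 change from 24 h to 20%. With the M2 mean at 24 h as 0 and at 20% as 1, replicate 1 was at 0.0925 and replicate 2 at 0.28. At 20% the mutant's arrays lay short of the M2 mean, at 0.863 and 0.831. At 85% they lay between 0.932 and 0.954, and the M2 arrays between 0.992 and 1.01. The scale therefore does not separate 20% from 85% in M2. The M2 arrays at 24 h and 20% themselves set the 0 and the 1, so the place of their means on this scale is fixed in advance. The M2 mean at 24 h sets both the 0 and the direction of the scale, so its error also moves the mutant's place. Without replicate 2 of M2 nsf1∆ the median difference of the 10 genes was 0.08, 9 were positive and that of YAP1 was 0.03, while without replicate 1 the median was 0.31, 10 were positive and that of YAP1 was 0.70. The part of the mutant's place on the scale from M2 24 h to 20% in the differences at 24 h, or in the changes between stages, was not tested further. CTT1 differed by 0.33 (95% interval 0.06 to 0.59, limma, adjusted p = 0.371), and the sign was negative at 20% (-0.14) and at 85% (-0.17). At 20% the arrays of 6 of the 10 did not overlap (50.2% of all probe sets).

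**Figure D5:**
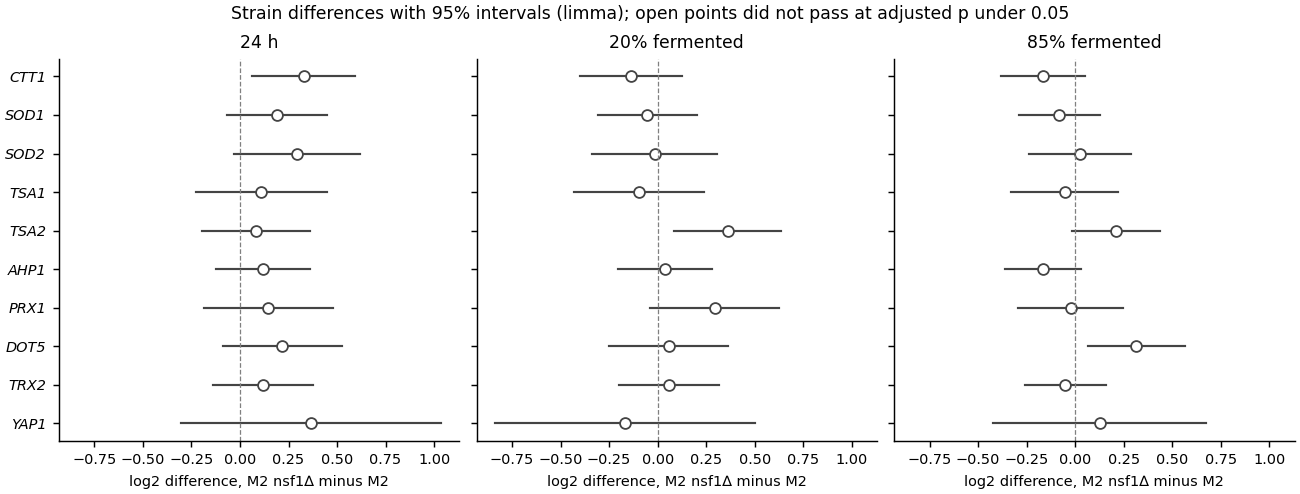
Log2 difference M2 nsf1∆ minus M2 (horizontal axis) of the 10 genes at 24 h, 20% and 85% fermented, as the limma estimate with its 95% interval. All points are open because 0 of 10 passed at any stage, and at 24 h all lie right of 0, from 0.08 to 0.37.

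Whether the course over the stages differed between strains was tested as an interaction. For 20% against 24 h 0 of 10 passed with limma (1.60% of all probe sets did) and CTT1 alone had an unadjusted p under 0.05. For 85% against 20% 0 passed (0.200% of all) and 0 had an unadjusted p under 0.05. For 85% against 24 h 0 passed (2.00% of all) and CTT1 alone did at the unadjusted level. None of the 23 partner genes passed for any of these interactions. Between strains, 0 of the 23 partner genes passed at 24 h (0.127% of all probe sets did) and 0 at 20% (0.346%). At 85% 1 of 23 passed, where 8.84% of all probe sets did, so this count alone does not set the partner genes apart. It was CAD1, lower in M2 nsf1∆ by 0.70 (limma, adjusted p = 0.00892), named here after its values were seen, as were SRX1, TRX3 and TRR1.

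Likeness of course was described with Pearson's r over the 14 arrays, which share their stages, so that r mostly follows the stage means and carries no p-value. CTT1 was most like SOD1 (r = 0.961) and then HXT5, a hexose transporter gene (0.944). TSA1 was like TSA2 (0.949) and AHP1 (0.947), and most like ERG10 (0.992) and ERG13 (0.988), both of the mevalonate pathway. TSA2 came closest to CPR5 and TIR1 (0.991 and 0.990), and AHP1 to PCP1 and GTB1 (0.981 and 0.980). SOD2 came closest to FUN14 and UBA4 (0.962 and 0.961), and PRX1 to OPI3 and DAK2 (0.947 and 0.928). SOD1 came closest to HXT5 and YNL208W (0.971 and 0.962), DOT5 to MPD2 and YOL107W (0.956 and 0.931), TRX2 to ACP1 and PRP5 (0.956 and 0.95), and YAP1 to SSH4 and ATG26 (0.980 and 0.978). The named pairs are not specific to some genes: 209 probe sets lay over r = 0.95 with TSA2, 147 with TSA1, 48 with YAP1 and 41 with AHP1. For the other genes the number was between 0 (PRX1) and 10 (SOD1). YAP1 ran opposite to TSA2 (r = -0.866) and to TSA1 (-0.800). Of the 20 genes so named, 4 stayed among the closest pair when Spearman's rho replaced r and 4 when the 6 group means did.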

How the data were processed

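The authors deposited 1 table of log2 intensities for the 14 arrays, made with RMA, which subtracts background, brings the arrays to 1 distribution by quantiles and combines the probes of each probe set. The version is not given in the sources used here. Strain and stage were taken from the sample labels, which give the later stages as glucose fermented. Of 10928 probe sets, 5498 that pair with a single S. cerevisiae gene in the platform annotation and RefSeq gene names were tested. Those annotated to a gene outside the S. cerevisiae RefSeq list, taken as S. pombe (1746), controls (213), no gene in the annotation (3470) and several genes (1) were left out.

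limma 3.58.1 in R 4.3.3 fitted 6 group means to all arrays, without a replicate block (8 residual and 5.14 prior degrees of freedom). P-values were adjusted by Benjamini-Hochberg over the 5498 probe sets, and 0.05 was the threshold. The code was tested on simulated data. The number of arrays limits the precision. Tables and plots used Python 3.11.15, numpy 2.4.6, pandas 2.3.3 and matplotlib 3.10.9.

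The 10 genes, the 23 partners and the marker lists were chosen with earlier results of these data known. Named partners are the largest rise and fall of each comparison of stages, with CTA1, CCS1, TRX1 and 4 regulators. SRX1, TRX3, TRR1 and CAD1 were added after their values were seen, and for each gene the 2 most alike are named. Other settings tried were a block for the replicate number, omission of the dimmest 25% of probe sets, inclusion of every probe set, a shift of arrays to 1 median, a second quantile normalization, a trend with intensity, weights for arrays, only the arrays compared, omission of single arrays, the t-test of the methods, and a 2-fold minimum. Promoter and protein sequences were not analysed here.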

Additional observations from a re-analysis of the deposited data

How the results depend on the processing

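With a change of at least 2-fold also required, the count of the 10 genes that passed was 0 for 20% against 24 h in M2 nsf1∆ and 0 in M2, 2 for 85% against 20% in M2 nsf1∆ and 2 in M2, and 2 for 85% against 24 h in M2 nsf1∆ and 2 in M2, because most changes were smaller. The share of all probe sets that passed this 2-fold rule was not counted, so these counts cannot be set against it. Leaving out 1 array at a time gave 1 to 4 genes (4 with all arrays) for 20% against 24 h in M2 nsf1∆, with 1 when replicate 1 at 24 h was left out, and 4 to 4 (7 with all arrays) in M2. Calls over all probe sets fell too, to 24.0% to 31.8% in M2 nsf1∆ (38.2% with all arrays) and 40.0% to 46.5% in M2 (52.9%). The other stage counts ranged from 6 to 6 (85% against 20%) and 5 to 6 (85% against 24 h) in M2 nsf1∆, and from 4 to 5 and 6 to 8 in M2. The counts between strains and for the interactions were 0 in all these runs. Where a group of 2 lost an array, the lone array was assumed to vary like the others. No called change reversed its sign under any alternative run.

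Whether replicate numbers pair the strains is not settled. The correlation of same-numbered deviations was -0.13 at 24 h and -0.11 at 20%. At 85% it was 0.0269, 0.235 and 0.574 for replicates 1, 2 and 3. Replicate 3 correlated best with its own number from either strain. Replicate 2 of M2 did so too, but replicate 2 of M2 nsf1∆ correlated best with replicate 1 of M2 (0.363), and replicate 1 did so from neither strain. With the number as a replicate block, the probe sets that passed between strains were 2 at 24 h, 1 at 20% and 541 at 85%, against 7, 19 and 486 without it, and the antioxidant genes that passed were 0 each time. With the numbers crossed at 24 h and 20%, a choice made after seeing the data, 16 and 71 probe sets passed, 0 of them antioxidant genes. The block let PRX1 in M2 pass as lower at 85% than at 20% (-0.38, adjusted p = 0.0375) and changed no other call of these genes. At 85% the methods' t-test passed 849 probe sets unadjusted and 0 after adjustment.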
